A study of Mus musculus with 6 samples.

Results

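The DEAD-box and DEAH-box RNA helicases were read in 2 fractions of sorted mouse hematopoietic stem cells. Members are the genes whose array symbol begins with Ddx or Dhx followed by a number, with Ddx58, Ddx3x and Ddx3y left out. The array carries 107 probe sets for 49 such genes, and 80 probe sets of 41 genes exceeded a level of log2 4 on 3 or more of the 6 arrays and were tested, among 19613 tested probe sets and 9460 tested genes in all. A gene was read through its tested probe set with the highest mean level, called its brightest below, and the other tested probe sets are given beside it. The cells were bone marrow cells without lineage markers that carried Sca-1 and c-Kit and lay in the side population, a gate defined by the efflux of a DNA-binding dye. Lower-SP cells lay in its lower part and Upper-SP cells in its upper part, and each fraction was measured on 3 arrays. The donors were male mice aged 10 weeks, strain C57Bl/6 (CD45.1), with no treatment or transgene named for either fraction. Each array holds pooled animals, since the cells were sorted from 3 pools on different days, and the RNA was amplified in 2 rounds before hybridization. Values are log2 expression levels given array by array in the order of the replicate numbers, and every difference is a log2 difference, Lower-SP minus Upper-SP, with its standard error (SE) and limma's adjusted p, with a threshold of 0.05.

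DEAD-box and DEAH-box proteins use ATP to pull apart short RNA duplexes or to strip proteins from RNA. They are named after a short motif in their ATP-binding core that reads Asp-Glu-Ala-Asp in the DEAD-box and Asp-Glu-Ala-His in the DEAH-box proteins. Different members drive the steps of the spliceosome, the assembly of ribosomes in the nucleolus, the export, translation and decay of mRNA, and the sensing of viral RNA. In blood, DDX41 is known as a gene mutated in inherited human myeloid malignancy.

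The sorted cells expressed stem cell genes: Procr, the endothelial protein C receptor, read 13.59 to 13.84 in Lower-SP and 13.61 to 13.84 in Upper-SP, and all 7 listed stem cell markers with a probe set were bright enough to test. Of these 7, 2 were lower in Lower-SP and 0 higher: Cd34, a surface marker of progenitors and part of the stem cells (8.62 to 8.92 in Lower-SP, 9.92 to 10.38 in Upper-SP, difference -1.41, SE 0.17, adjusted p = 0.0030), and Kit, the stem cell factor receptor (7.83 to 8.19 in Lower-SP, 8.66 to 9.10 in Upper-SP, difference -0.92, SE 0.20, adjusted p = 0.014). Between 19317 and 19666 probe sets per array lay above log2 4. The 2 groups also differed in transcripts of other cells. Of 10 listed neutrophil genes 7 were tested and 4 were higher in Lower-SP, and the log2 of their summed level was 14.06, 13.44 and 9.95 on Lower-SP arrays 1, 2 and 3, against 7.92 to 9.43 on the Upper-SP arrays, with Elane under 4 on every array. Of 6 listed plasma cell genes 2 were tested and 4 lay under 4 on every array. The sum over this list was 5.80 to 9.54 in Lower-SP and 11.35 to 12.63 in Upper-SP, and Igha alone read 4.70 to 9.40 in Lower-SP and 11.31 to 12.60 in Upper-SP. Igha was lower in Lower-SP (adjusted p = 0.024) and Jchain did not pass (0.11). Of 4 tested macrophage genes 1 was higher, Csf1r (1.06, adjusted p = 0.023). The 1 tested T and NK cell gene, Nkg7, was lower (-1.14, adjusted p = 0.033), and 0 of 2 tested B cell genes passed. Of the listed erythroid genes 4 had a probe set and none of these exceeded 4 on any array. Of 5 dividing cell genes with a probe set 3 were tested and 0 passed, with sums of 10.09 to 11.88 against 10.45 to 10.69 and Birc5 under 4 on every array. The part of these cells in the helicase values was not tested. In bulk RNA, fewer cells of one kind and less transcript per cell cannot be told apart.

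The shares of helicase genes that passed were near or under those of all genes, so the counts are no result particular to the family. In Lower-SP 1 of the 41 genes was higher (2.44%, where 7.05% of all tested genes were higher) and 9 were lower (22.0%, where 20.7% of all tested genes were lower). Over both directions 27.7% of all tested genes passed. Before adjustment 15 of the 41 genes had p under 0.05. The same count over all genes was not made, so it is no result about the family. The median difference was -0.28, against -0.24 over all tested genes. In 14 genes (34.1%) the 2 groups of values lay wholly apart, 4 with Lower-SP above (13.4% of all tested genes) and 10 with Lower-SP below (32.3% of all), where 45.7% of all tested genes did so in either direction. Over probe sets, 5 of 80 were higher (6.25%, against 10.7% of all) and 16 lower (20.0%, against 17.5% of all, with 28.1% of all called in either direction), and they belong to 19 genes. The groups lay apart in 33 of the 80, 13 with Lower-SP above (18.2% of all probe sets) and 20 with Lower-SP below (27.9% of all), where 46.1% of all did so in either direction. The mean level of the 41 genes was 8.05, 8.02 and 8.27 in Lower-SP, against 8.49, 8.47 and 8.26 in Upper-SP, so that Lower-SP replicate 3 lay just above Upper-SP replicate 3. Over all tested genes the mean was also lower in Lower-SP, at 7.75, 7.72 and 7.79, against 8.03, 7.97 and 7.89 in Upper-SP. The counts depended on single arrays, and so did those over all tested genes, of which 2625 were called on all arrays. Leaving out Upper-SP replicate 1 left 0 higher and 2 lower helicase genes, with 695 of all genes called. Without Upper-SP replicate 2 they were 0 and 2, with 1185 of all genes. Leaving out Lower-SP replicate 1 left 0 and 5 (1697 of all genes), and leaving out Lower-SP replicate 2 left 0 and 4 (1407). Leaving out Lower-SP replicate 3 left 1 and 8 (3085), and leaving out Upper-SP replicate 3 left 1 and 10 (2818). With Lower-SP replicates 1 and 2 both left out, which leaves 1 Lower-SP array assumed to vary like the other group, 2 were higher and 2 lower (4.32% and 8.33% of all genes), and 0 of the 10 genes called on all arrays were among them. Scaling moved the split between the directions. It was 3 higher and 4 lower with cyclic loess (10.2% and 13.8% of all genes), 2 and 5 with median centring (8.38% and 17.4%) and 2 and 7 with quantile normalization (8.86% and 16.5%).

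**Figure D1:**
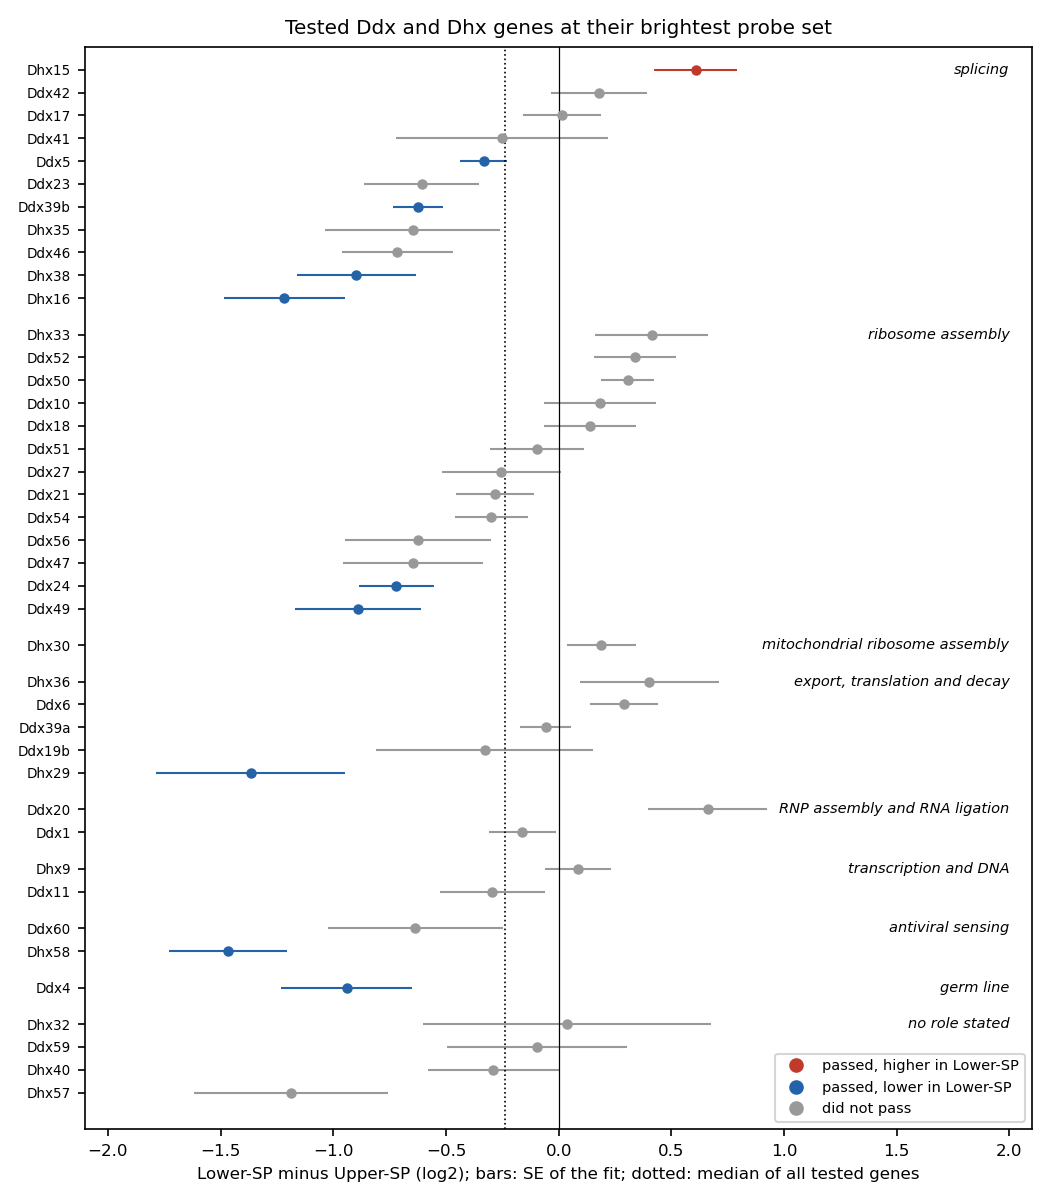
Differences of the 41 tested genes at their brightest probe set (x axis, Lower-SP minus Upper-SP, log2), grouped by role, with the SE of the fit as bars, zero as a solid line and the median of all tested genes, -0.24, as a dotted line. Dhx15 is the 1 gene called higher, and the 9 called lower are spread over splicing, ribosome assembly, translation, antiviral and germ line genes.

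Of the 2 antiviral members, Dhx58 was lower in Lower-SP, with the largest difference in size among the 41 genes at their brightest probe sets, and Ddx60 did not pass at its brightest. Another probe set of Ddx60 was called lower but was tested only through the Upper-SP arrays and so had to differ. Dhx58 (LGP2) is a cytoplasmic sensor of double-stranded RNA related to RIG-I and MDA5, and Ddx60 is a helicase induced by interferon. Dhx58 read 4.76, 4.52 and 4.62 in Lower-SP and 6.25, 6.41 and 5.65 in Upper-SP. All Lower-SP values lay close together (SD 0.12) and under the lowest Upper-SP value, but not far above the level for testing. The difference was -1.47 (SE 0.26, 2.76-fold lower in Lower-SP, adjusted p = 0.0077), and with each array left out in turn it stayed between -1.69 and -1.31 with adjusted p from 0.0059 to 0.048. With Lower-SP replicates 1 and 2 left out the difference was -1.48 and the adjusted p 0.0605. The other probe sets of Dhx58, 1420768_a_at and 1420769_at, lay under 4 on every array.

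Ddx60 was read by 2 dim probe sets. At 1451777_at it read 2.79, 2.49 and 2.89 in Lower-SP and 4.62, 4.86 and 4.90 in Upper-SP. Every Lower-SP value lay under the level for testing and every Upper-SP value above it, so this call is no support for a difference. With values under 4 set to 4 the level in Lower-SP was at least 1.73-fold lower (adjusted p = 0.0015 on the deposited values). At 1439114_at, its brightest, Ddx60 read 4.09, 4.05 and 2.66 in Lower-SP and 4.33, 3.98 and 4.40 in Upper-SP, groups that overlap, with a difference of -0.64 (SE 0.39, adjusted p = 0.25). The difference there was -1.57 with Lower-SP replicates 1 and 2 left out (adjusted p = 0.030), from Lower-SP replicate 3 alone.

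The sequence before the start of Ddx60 is shown because it carries repeats of the kind that interferon-activated factors bind. It is the stretch of 250 bases before the annotated start in the RefSeq promoter table (GRCm38.p6, a build that the deposited values do not name). GAAANNGAAA, in which N is any base, was searched on both strands, and capitals mark its matches:
Ddx60, chr8:61927837-61928086, plus strand: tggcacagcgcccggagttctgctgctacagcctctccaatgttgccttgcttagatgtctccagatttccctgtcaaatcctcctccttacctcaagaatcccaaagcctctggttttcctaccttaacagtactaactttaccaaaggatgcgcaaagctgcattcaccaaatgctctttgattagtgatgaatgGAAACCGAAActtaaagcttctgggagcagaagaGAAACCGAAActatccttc
The matches begin 53 and 19 bases before the start and read the same 10 letters in each case, GAAACCGAAA. Such a match is found for 3.46% of the 27025 genes with a promoter there, and for 2 of the 35 tested helicase genes with one (5.71%), Ddx60 and Ddx49. Dhx58, Dhx38, Ddx6, Ddx11, Ddx23 and Ddx39a have no promoter there, so they were not searched for this or any other motif. A match is a description of the sequence and not of binding.

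Among the splicing helicases at their brightest probe sets, 1 of 11 genes was higher and 4 were lower, with a median of -0.61 and 6 genes that did not pass, where 7.05% of all tested genes were higher and 20.7% lower with a median of -0.24. Over the 22 tested probe sets of these genes the median was only -0.25, with 1 higher (4.55%) and 6 lower (27.3%). Over all tested probe sets the median was -0.14, with 10.7% higher and 17.5% lower. Whether the splicing genes differ from other genes was not tested. The DEAH-box members of this group act one after another on the spliceosome. Dhx16 (the counterpart of yeast Prp2), which activates the spliceosome for the first step of splicing, read 8.10, 8.20 and 8.08 in Lower-SP and 9.50, 9.79 and 8.74 in Upper-SP. The Lower-SP values had an SD of 0.07 and lay under every Upper-SP value. The difference was -1.22 (SE 0.27, 2.32-fold lower, adjusted p = 0.015). It missed the threshold without Upper-SP replicate 1 (-1.14, adjusted p = 0.077), without Upper-SP replicate 2 (-0.995, 0.055) and with Lower-SP replicates 1 and 2 left out (-1.27, 0.11).

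Dhx38 (the counterpart of yeast Prp16), which remodels the spliceosome between the steps, read 6.29, 6.32 and 6.88 in Lower-SP and 7.67, 7.43 and 7.08 in Upper-SP. The groups did not overlap, though Lower-SP replicate 3 and Upper-SP replicate 3 were close. Its difference of -0.90 (SE 0.26, adjusted p = 0.039) passed with 2 of the 6 arrays left out in turn. It was lost without any 1 of Lower-SP replicates 1 and 2 and Upper-SP replicates 1 and 2 (adjusted p up to 0.16), and with cyclic loess (-0.75, adjusted p = 0.058), and was -0.52 with Lower-SP replicates 1 and 2 left out (adjusted p = 0.31). Dhx35, which is found in spliceosomes at the catalytic step, differed by -0.65 (SE 0.39) without passing.

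Dhx15 (the counterpart of yeast Prp43), which takes spliced-out introns apart and also serves in ribosome assembly, was the 1 gene called higher. At its brightest probe set it read 12.68, 12.40 and 12.60 in Lower-SP and 11.53, 12.15 and 12.18 in Upper-SP, with Upper-SP replicate 1 the lowest. The difference of 0.61 (SE 0.18, adjusted p = 0.043) did not pass with any array left out other than Upper-SP replicate 3, and it ran from 0.40, without Upper-SP replicate 1, to 0.72 (adjusted p 0.041 to 0.12). A second probe set, 1416145_at, read 11.49, 11.40 and 11.58 in Lower-SP and 11.72, 11.83 and 11.61 in Upper-SP, with the opposite sign (-0.23, adjusted p = 0.16).

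Ddx39b (UAP56), a DEAD-box protein that helps the U2 particle bind the intron and then loads the mRNA export machinery, was lower at both of its bright probe sets. At 1448221_at it read 11.71, 11.47 and 11.32 in Lower-SP and 12.74, 12.60 and 12.18 in Upper-SP (difference -1.01, SE 0.17, adjusted p = 0.0068). At its brightest, 1437984_x_at, it read 12.05, 12.06 and 11.93 in Lower-SP and 12.82, 12.55 and 12.55 in Upper-SP (difference -0.62, SE 0.11, adjusted p = 0.0078). At neither did the groups overlap, and at both the call was kept with each array left out in turn. At 1448221_at it was kept in all 17 alternatives tried. At 1437984_x_at it was lost with Lower-SP replicates 1 and 2 left out (adjusted p = 0.054). A dimmer probe set, 1447779_x_at, differed by -0.19 (SE 0.21) without passing. Ddx39a (URH49), the close paralog of Ddx39b in export, had 4 tested probe sets with differences from -0.57 to 0.32, of which 0 passed.

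The sequences before the starts of Dhx16 and Ddx39b, which lie on chromosome 17, are shown as those of lowered splicing helicases, with the same source and length as for Ddx60. Capitals mark CCGGAAG, the core that ETS-family factors bind, searched on both strands, so that it reads CTTCCGG where it lies on the other strand:
Dhx16, chr17:35879528-35879777, plus strand: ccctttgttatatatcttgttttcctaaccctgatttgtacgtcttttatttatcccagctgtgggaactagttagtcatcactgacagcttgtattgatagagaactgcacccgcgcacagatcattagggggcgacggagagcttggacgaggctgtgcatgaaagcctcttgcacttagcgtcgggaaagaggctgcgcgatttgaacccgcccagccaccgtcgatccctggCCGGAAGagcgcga
Ddx39b, chr17:35241496-35241745, plus strand: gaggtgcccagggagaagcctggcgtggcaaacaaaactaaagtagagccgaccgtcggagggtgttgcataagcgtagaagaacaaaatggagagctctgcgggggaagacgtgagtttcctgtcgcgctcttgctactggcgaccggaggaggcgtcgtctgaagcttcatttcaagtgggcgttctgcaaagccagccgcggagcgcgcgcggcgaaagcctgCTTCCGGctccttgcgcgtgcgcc
The match begins 14 bases before the start of Dhx16 and 24 bases before that of Ddx39b. The motif is in 7.83% of all genes of the promoter table, in 16.9% of the 7746 tested genes found there, and in 13 of the 35 tested helicase genes found there (37.1%). Among these 13 are genes called lower (Dhx16, Ddx39b, Ddx49 and Ddx5) and genes that did not pass at their brightest probe set, such as Dhx9, Ddx1 and Dhx30.

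Ddx5 (p68) and its paralog Ddx17 (p72), RNA helicases that also act as transcription cofactors, gave different answers by probe set. Ddx5 at its brightest, 1419653_a_at, read 12.67, 12.73 and 12.55 in Lower-SP and 12.89, 13.14 and 12.92 in Upper-SP. That small difference, -0.33 (SE 0.10, adjusted p = 0.048), did not pass with any of the 6 arrays left out (adjusted p 0.057 to 0.16) or with cyclic loess, median centring or quantile normalization (adjusted p 0.14 to 0.23). Its probe sets 1438371_x_at (0.62) and 1454793_x_at (0.80) had the opposite sign without passing, and on both Upper-SP replicate 1 was the lowest array.

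Ddx17 at 1452155_a_at read 12.40, 12.63 and 12.58 in Lower-SP and 13.70, 13.69 and 13.19 in Upper-SP, a difference of -0.99 (SE 0.15, 1.99-fold lower, adjusted p = 0.0051). This call was kept with each array left out in turn and lost with Lower-SP replicates 1 and 2 left out (-0.95, adjusted p = 0.058). At its brightest, 1437773_x_at, Ddx17 read 14.09, 13.82 and 13.84 in Lower-SP and 13.51, 14.18 and 14.02 in Upper-SP, overlapping groups with a difference of 0.01 (SE 0.17). A name ending in _x_at marks a probe set whose probes may also match other transcripts.

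The remaining splicing members did not pass. Ddx46 (the counterpart of yeast Prp5), which acts with the U2 particle, had 4 tested probe sets from -0.72 to 0.90. The groups lay apart at its brightest (-0.72, SE 0.25, adjusted p = 0.064) and, with the opposite sign, at 1457744_at (0.90, SE 0.34, adjusted p = 0.084). Ddx23 (the counterpart of yeast Prp28), which acts when the U4/U6.U5 particle joins, differed by -0.61 (SE 0.26, adjusted p = 0.11) and at a dim probe set by 0.14. Ddx41 read 7.24, 6.84 and 8.31 in Lower-SP and 8.04, 8.23 and 6.87 in Upper-SP, so replicate 3 of each fraction stood on the opposite side from its other replicates. Its difference, -0.25 (SE 0.47), became 0.06 without Lower-SP replicate 2 and 0.60 with Lower-SP replicates 1 and 2 left out, and passed in neither. Ddx42, associated with the SF3B complex, differed by 0.18 (SE 0.21).

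**Figure D2:**
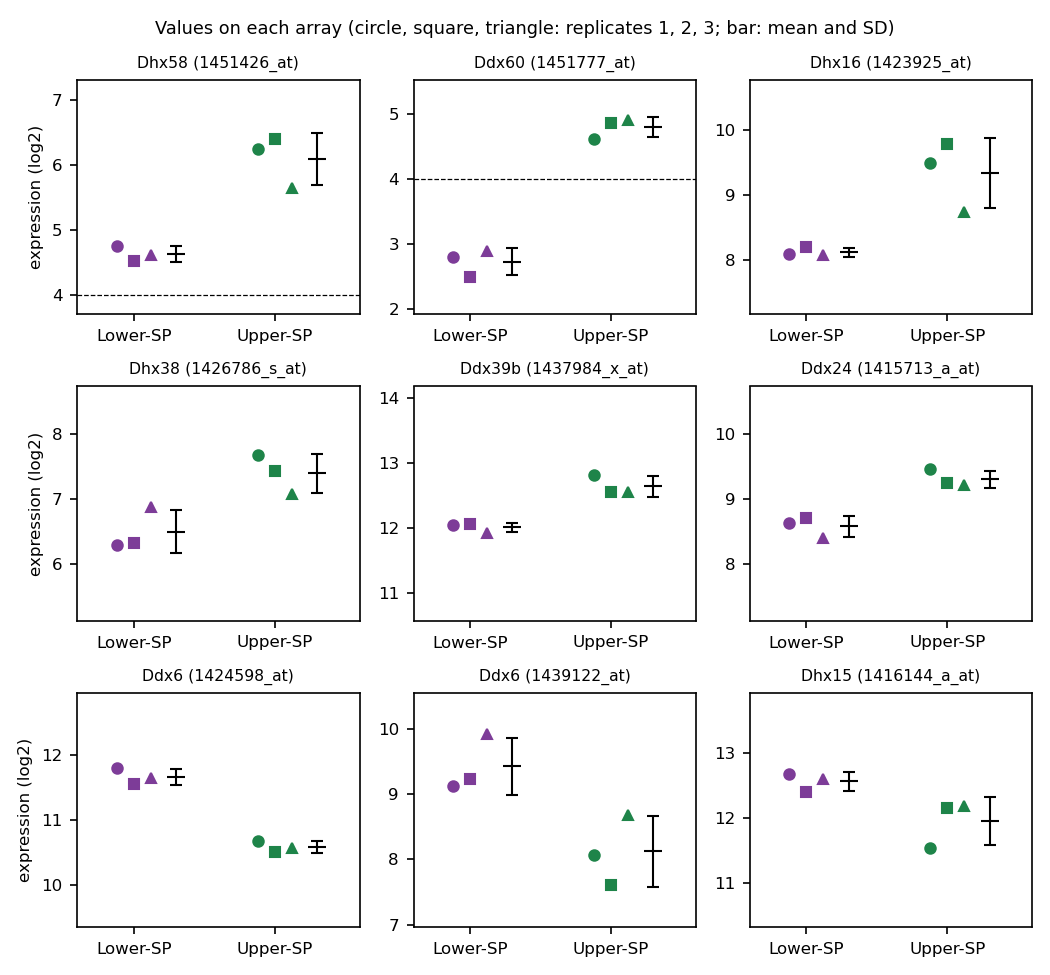
Level on each array (y axis, log2, the same height of scale in every panel) at 9 probe sets, Lower-SP left and Upper-SP right, with circle, square and triangle for replicates 1, 2 and 3, bars for the mean and SD, and a dashed line at log2 4. Only called probe sets were drawn, and the groups do not overlap in any panel, which is no result beyond that choice. The brightest probe sets of Ddx60 and Ddx6, at which the groups overlap, are not shown. For Ddx60 the Lower-SP arrays lie at 2.49 to 2.89, under the level for testing, so this probe set had to differ. For Dhx15 Upper-SP replicate 1 lies at 11.53, under the other 5 arrays.

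Ddx6 (p54/RCK), which holds mRNAs in a repressed state and takes part in decapping, was higher in Lower-SP at 2 of its 3 tested probe sets. At 1424598_at it read 11.80, 11.55 and 11.64 in Lower-SP and 10.68, 10.51 and 10.57 in Upper-SP. The SD was 0.12 in Lower-SP and 0.09 in Upper-SP, and the groups did not overlap (difference 1.08, SE 0.12, 2.11-fold higher, adjusted p = 0.0022). The call was kept in all 17 alternatives tried, among them the one with Lower-SP replicates 1 and 2 left out (1.06, adjusted p = 0.028).

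At 1439122_at Ddx6 read 9.13, 9.23 and 9.93 in Lower-SP and 8.07, 7.61 and 8.69 in Upper-SP (difference 1.31, SE 0.32, adjusted p = 0.022), without overlap. This call was lost without Upper-SP replicate 1 (1.28, adjusted p = 0.088), Upper-SP replicate 2 (1.05, 0.071) or Lower-SP replicate 2 (1.40, 0.053). At its brightest, 1434697_at, Ddx6 read 12.55, 12.55 and 12.42 in Lower-SP and 11.88, 12.34 and 12.42 in Upper-SP, groups that overlap in replicate 3 (difference 0.29, SE 0.15, adjusted p = 0.18). By the brightest probe set alone Ddx6 therefore counts among the genes that did not pass.

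Of the 5 tested genes of export, translation and decay, 0 were higher and 1 was lower at the brightest probe set. Dhx29, which helps the small ribosomal subunit scan structured leaders, read 3.43, 4.24 and 4.86 in Lower-SP and 5.81, 5.91 and 4.90 in Upper-SP, with Lower-SP replicate 3 just under Upper-SP replicate 3. Its difference of -1.37 (SE 0.42, adjusted p = 0.045) passed with 2 of the 6 arrays left out in turn, was lost without Lower-SP replicates 1 or 2 or Upper-SP replicates 1 or 2, each alone (adjusted p up to 0.16), and was -0.69 with Lower-SP replicates 1 and 2 left out (adjusted p = 0.36). It was also lost with cyclic loess (0.052) and median centring (0.053). Ddx19b, which releases mRNA at the nuclear pore, differed by -0.33 (SE 0.48).

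Dhx36, which unwinds G-quadruplexes, gave different answers by probe set. At 1437550_at it read 4.14, 4.90 and 5.35 in Lower-SP and 6.63, 6.36 and 6.07 in Upper-SP (difference -1.56, SE 0.34, adjusted p = 0.015, lost without Upper-SP replicate 1, at 0.076, or Upper-SP replicate 2, at 0.053), and -1.003 with Lower-SP replicates 1 and 2 left out (0.094). At its brightest, 1424398_at, it read 8.15, 7.29 and 7.995 in Lower-SP and 7.44, 6.99 and 7.81 in Upper-SP, with overlap (difference 0.40, SE 0.31), and at 1424397_at it differed by -0.63 without passing.

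Of 13 tested ribosome assembly genes 0 were higher and 2 lower, with a median of -0.25, close to that of all genes. Ddx24, a nucleolar helicase whose yeast counterpart acts in large subunit assembly, read 8.63, 8.71 and 8.40 in Lower-SP and 9.46, 9.24 and 9.21 in Upper-SP, without overlap. The difference was -0.72 (SE 0.17, 1.65-fold lower, adjusted p = 0.018), lost without Upper-SP replicate 1 (adjusted p = 0.091) or 2 (0.056) with cyclic loess (-0.51, 0.056) and with Lower-SP replicates 1 and 2 left out (-0.90, 0.054), and a dim probe set differed by 0.12. Ddx49, whose yeast counterpart acts in small subunit assembly, read 5.59, 6.19 and 6.52 in Lower-SP and 7.07, 6.89 and 7.002 in Upper-SP. Its difference of -0.89 (SE 0.28, adjusted p = 0.048) passed with 1 of the 6 arrays left out in turn, Lower-SP replicate 3, and had an adjusted p of up to 0.16 without the others. It was lost with all 3 other scalings (adjusted p 0.063 to 0.079) and was -0.47 with Lower-SP replicates 1 and 2 left out (0.25). At its other probe sets Ddx49 differed by -0.59 and 0.08, and neither passed.

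Ddx21 and Ddx50 are paralogs that lie side by side on chromosome 10 (GRCm38.p6), and Ddx21 is known to couple transcription and processing of ribosomal RNA. Ddx50 at 1439082_at read 11.83, 11.57 and 11.50 in Lower-SP and 10.91, 10.60 and 11.08 in Upper-SP. All 3 of its tested probe sets were positive, at 0.77 (SE 0.16, adjusted p = 0.013, 0.055 without Upper-SP replicate 1, and 0.12 with Lower-SP replicates 1 and 2 left out), 0.42 and 0.31, of which the last 2 did not pass. The last is the brightest, and it passed with cyclic loess (0.50, adjusted p = 0.022), median centring (0.39, 0.041) and quantile normalization (0.46, 0.024). Ddx21 read 9.25, 9.18 and 9.64 in Lower-SP and 9.75, 9.51 and 9.65 in Upper-SP at its brightest probe set, and its probe sets, at -0.28 (SE 0.17) and -0.39 (SE 0.18), did not pass. Whether the paralogs differ from each other was not tested.

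Other ribosome assembly genes were called at a probe set that was not their brightest. Ddx54 at 1460396_at read 8.44, 8.46 and 9.19 in Lower-SP and 9.93, 9.75 and 9.33 in Upper-SP (difference -0.97, SE 0.26, adjusted p = 0.028). It passed without Lower-SP replicate 3 or Upper-SP replicate 3 and had an adjusted p of up to 0.12 without any 1 of the others, and was -0.48 with Lower-SP replicates 1 and 2 left out (0.30). Its brightest, 1438853_x_at, differed by -0.30 without passing, and passed without Lower-SP replicate 3 (-0.49, adjusted p = 0.011). Ddx18 at 1416071_at read 5.82, 4.86 and 5.35 in Lower-SP and 6.78, 6.11 and 6.29 in Upper-SP (difference -1.05, SE 0.32, adjusted p = 0.042). It passed without Lower-SP replicate 1 and had an adjusted p of up to 0.16 without any 1 of the others, 0.051 with cyclic loess and 0.11 with Lower-SP replicates 1 and 2 left out. Its brightest differed by 0.14. Ddx10 at 1428563_at read 5.47, 5.28 and 4.54 in Lower-SP and 3.37, 3.32 and 3.99 in Upper-SP. It was tested only through the Lower-SP arrays and so had to differ (at least 2.14-fold higher, adjusted p = 0.012, 0.064 without Upper-SP replicate 1, and 0.11 with Lower-SP replicates 1 and 2 left out), and its brightest probe set differed by 0.18 (SE 0.25). Of the rest, Dhx33 (0.41), Ddx52 (0.34), Ddx51 (-0.10), Ddx27 (-0.25), Ddx56 (-0.62) and Ddx47 (-0.65) did not pass.

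Dhx30, which is needed for mitochondrial ribosome assembly, had 4 tested probe sets. At 1416140_a_at, the 1 annotated to a RefSeq mRNA, it read 8.26, 8.12 and 8.43 in Lower-SP and 9.08, 8.86 and 9.11 in Upper-SP (difference -0.75, SE 0.17, adjusted p = 0.018, lost without Lower-SP replicate 2, at 0.062, or Upper-SP replicate 1, at 0.086, and at 0.13 with Lower-SP replicates 1 and 2 left out). The other 3 lay between 0.13 and 0.19, and none of them passed.

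The remaining members gave 1 call. Ddx4 (VASA), a germ cell helicase, read 3.83, 3.78 and 3.50 in Lower-SP and 4.30, 4.38 and 5.26 in Upper-SP, was tested only through the Upper-SP arrays and so had to differ (at least 1.57-fold lower). Its adjusted p of 0.046 was 0.056 to 0.10 with any 1 array left out and 0.075 with median centring. Ddx20 (Gemin3), a subunit of the SMN complex that assembles splicing particles, read 7.05, 6.86 and 7.67 in Lower-SP and 6.66, 6.52 and 6.41 in Upper-SP, without overlap (difference 0.66, SE 0.26, adjusted p = 0.098). Ddx20 passed with cyclic loess (0.81, adjusted p = 0.048). Its difference was 1.14 with Lower-SP replicates 1 and 2 left out. Ddx1, part of the tRNA ligase complex, differed by -0.16 and 0.37 at its probe sets, and the DNA helicase Ddx11 by -0.29 and -0.38, with 0 passing. Dhx9 (RNA helicase A), which acts in transcription, read 10.23, 10.31 and 10.17 in Lower-SP and 9.95, 10.15 and 10.34 in Upper-SP, overlapping groups (difference 0.08, SE 0.15, adjusted p = 0.69), and its other tested probe set differed by -0.09 (SE 0.21, adjusted p = 0.77). Dhx57 differed by -1.19 (SE 0.43, adjusted p = 0.075), Dhx40 by -0.29, Ddx59 by -0.10 and Dhx32 by 0.04.

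Dhx32 read 4.41, 4.70 and 7.04 in Lower-SP and 5.69, 5.16 and 5.19 in Upper-SP. Lower-SP replicate 3 lay above all Upper-SP arrays and the other Lower-SP arrays lay below them. Dhx32 (1.69, adjusted p = 0.037) and Dhx57 (-1.88, adjusted p = 0.033) passed with Lower-SP replicates 1 and 2 left out, each on 1 Lower-SP array. The remaining 8 genes had no tested probe set. Ddx43 read above 4 on 2 arrays only, Lower-SP replicates 1 and 2 (5.02 and 4.88), and Dhx34, which acts in nonsense-mediated decay, on Upper-SP replicates 1 and 2 only (4.30 and 4.40). They lay just outside the level for testing, where Ddx4, the 1451777_at probe set of Ddx60, the 1428563_at probe set of Ddx10 and a probe set of Ddx47 (3.75 to 4.05 over the 6 arrays) lay just inside it with 3 arrays. Ddx55 exceeded 4 on Lower-SP replicate 1 (4.30), and Ddx25, Ddx28, Ddx31, Dhx8 and Dhx37 did on no array.

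Probe sets of the same gene often disagreed. Several tested probe sets were present for 24 helicase genes, of which 14 had at least 1 called and 0 had all of theirs called. The same counts over all genes were not made, so these are no result about the family. In 0 of the 24 were probe sets called in opposite directions. That was also rare over the whole array, at 143 of 4076 genes. The sign differed between probe sets in 15 of the 24 (62.5%), as it did in 1952 of 4076 genes over the whole array (47.9%). The widest spread within a gene was 1.96, in Dhx36, followed by 1.62 in Ddx46 and 1.43 in Ddx60. The 13 tested _x_at probe sets of the family had a median difference of 0.14 with 0 higher and 1 lower. Over all 1411 tested _x_at probe sets the median was -0.02, with 7.09% higher and 13.25% lower. The 52 whose names end in a plain _at had a median of -0.24 with 4 higher and 10 lower. Over all 14344 that end in _at with no letter before it the median was -0.13, with 11.9% higher and 16.7% lower.

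**Figure D3:**
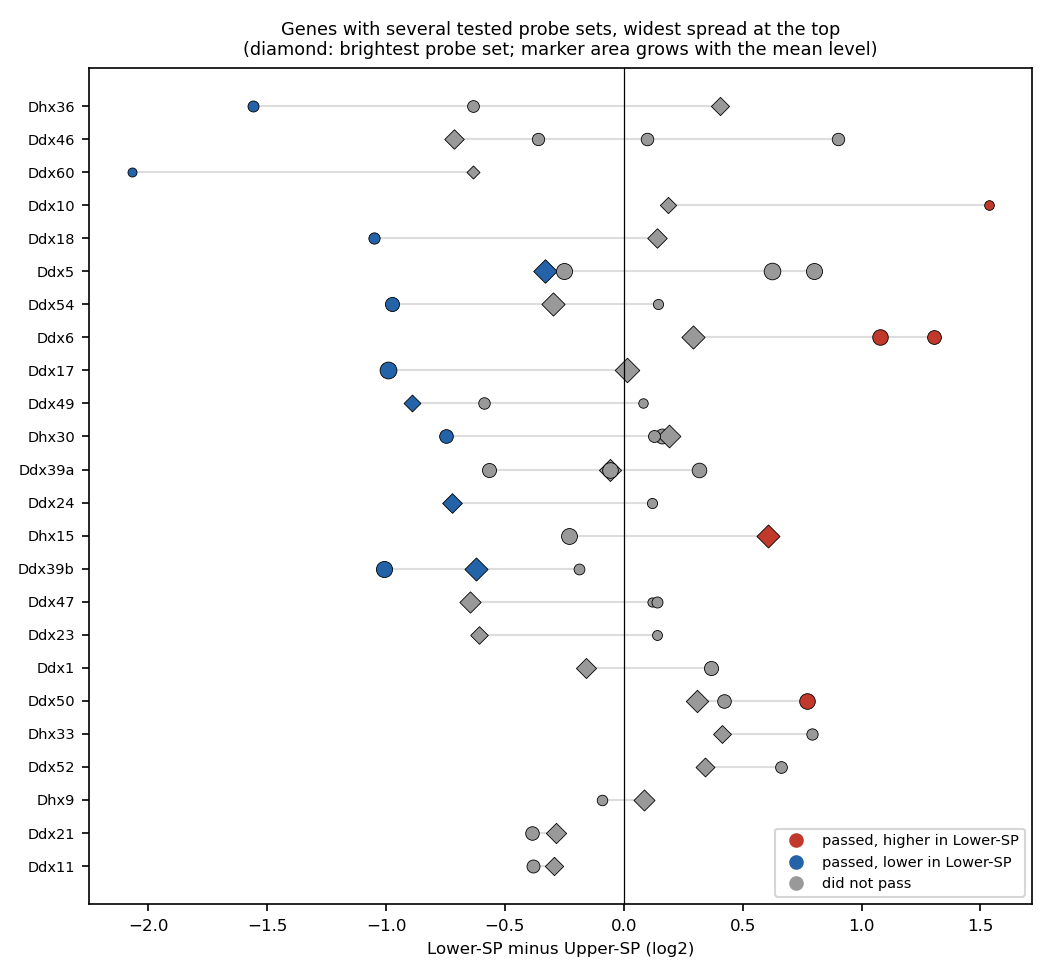
Differences (x axis, Lower-SP minus Upper-SP, log2) of every tested probe set in the 24 genes with at least 2, ordered by their spread, with a diamond for the brightest probe set, circles for the others, and marker area growing with the mean level. In Ddx6 all 3 probe sets lie above zero and 2 were called, in Ddx39b all 3 lie below zero and 2 were called, and in 15 genes the markers lie on both sides of zero.

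Helicases of other names and the partners of the family were taken from fixed lists. Of 15 tested RNA helicases without a Ddx or Dhx name, 2 were higher and 0 lower (median -0.17), where 7.05% of all tested genes were higher and 20.7% lower with a median of -0.24. Ighmbp2, a helicase that moves along RNA and DNA, read 6.93, 6.95 and 7.62 in Lower-SP and 5.32, 4.42 and 6.06 in Upper-SP (difference 1.90, SE 0.43, adjusted p = 0.016). It was lost without Upper-SP replicate 1 (adjusted p = 0.069), and its other probe sets differed by 1.67 (called) and -0.07. Ythdc2, a helicase that reads methylated RNA, read 6.60, 6.00 and 5.48 in Lower-SP and 4.73, 5.02 and 4.79 in Upper-SP (difference 1.18, SE 0.31, adjusted p = 0.027). It passed with 1 of the 6 arrays left out in turn, Lower-SP replicate 3, and its adjusted p was up to 0.11 without the others. Helz, a helicase with a zinc finger, did not pass at its brightest probe set (0.16, SE 0.20) and was called higher at its 3 other tested probe sets (1.27, 0.99 and 2.02), of which the last exceeded 4 on the Lower-SP arrays alone and so had to differ.

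Of 26 tested partners of DEAD-box proteins, 3 were higher and 3 lower (median 0.02), against the same shares and median of all genes. Thoc2, the scaffold of the THO complex to which Ddx39b binds, read 12.35, 12.43 and 12.45 in Lower-SP and 11.68, 11.52 and 11.60 in Upper-SP (difference 0.81, SE 0.10, adjusted p = 0.0028). Sarnp, another partner of Ddx39b in export, read 11.32, 11.26 and 11.35 in Lower-SP and 10.16, 10.23 and 10.72 in Upper-SP (difference 0.94, SE 0.17, adjusted p = 0.0076), and a second of its probe sets was called as well (0.79). Both Thoc2 and Sarnp passed with each array left out, whereas the other probe sets of Thoc2, at -0.02 and -0.13, did not pass. Esf1, a nucleolar protein, read 9.81, 9.32 and 9.03 in Lower-SP and 7.80, 7.71 and 8.75 in Upper-SP (difference 1.30, SE 0.33, adjusted p = 0.023, with a second probe set called at 1.35), and it was lost without Lower-SP replicates 1 or 2 or Upper-SP replicates 1 or 2, each alone (adjusted p up to 0.10). Eif4b, a cofactor of the DEAD-box protein eIF4A, read 9.16, 9.19 and 8.86 in Lower-SP and 9.80, 9.63 and 9.71 in Upper-SP (difference -0.64, SE 0.16, adjusted p = 0.021). It was lost without Upper-SP replicate 1 (adjusted p = 0.10) or 2 (0.059), with cyclic loess (-0.43, 0.089), with quantile normalization (-0.49, 0.060) and with no filter (0.060).

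Rtcb, the tRNA ligase that works with Ddx1, read 12.36, 12 and 12.46 in Lower-SP and 13.08, 13.16 and 12.79 in Upper-SP (difference -0.74, SE 0.15, adjusted p = 0.012, and 0.063 without Upper-SP replicate 1). Casc3, of the exon junction complex, read 6.93, 7.14 and 6.78 in Lower-SP and 7.95, 7.81 and 7.42 in Upper-SP (difference -0.77, SE 0.23, adjusted p = 0.038). Casc3 passed without Upper-SP replicate 3, had an adjusted p of up to 0.16 without any 1 of the others, and was lost with all 3 other scalings (0.053 to 0.077). Rtcb and Casc3 each lay under every Upper-SP value in all 3 Lower-SP arrays. A second probe set was called for Eif4b (-0.83) and for Rtcb (-1.39). The third tested probe set did not pass for either, at -0.01 for Eif4b (SE 0.20, adjusted p = 0.98) and -2.06 for Rtcb (SE 0.69, adjusted p = 0.059). Some partners that did not pass at their brightest probe set were called at others, lower for Eif4g2 (-0.51 and -0.78) and Eif4h (-0.37 and -0.69) and higher for Thoc1 (1.43) and Gemin5 (2.57).

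A further list held G-patch proteins, some of which switch on DEAH-box helicases, and Utp14a, a DEAH-box partner of another kind. Of its 19 tested genes 2 were higher and 2 lower (median -0.18), where all tested genes had 7.05% higher, 20.7% lower and a median of -0.24. Rbm5, a splicing regulator that can activate Dhx15, read 13.24, 13.12 and 13.42 in Lower-SP and 11.98, 11.69 and 12.50 in Upper-SP (difference 1.20, SE 0.20, 2.30-fold higher, adjusted p = 0.0062). It passed with each array left out in turn, and of its 4 other tested probe sets 3 were called higher (2.23, 0.81 and 0.64) and 1, at -0.36, did not pass. Gpatch2 read 5.48, 5.09 and 5.98 in Lower-SP and 3.48, 3.64 and 3.79 in Upper-SP, under the level for testing, so it was tested only through Lower-SP and had to differ (at least 2.86-fold higher, adjusted p = 0.0042). Sugp1, which links Dhx15 to the branch site complex, read 7.34, 7.35 and 7.94 in Lower-SP and 8.502, 8.24 and 8.17 in Upper-SP (difference -0.76, SE 0.23, adjusted p = 0.044, passing without Lower-SP replicate 3 and with an adjusted p of up to 0.17 without any 1 of the others). Sugp2 read 8.94, 9.24 and 8.78 in Lower-SP and 9.64, 9.73 and 9.76 in Upper-SP (difference -0.72, SE 0.17, adjusted p = 0.018), and another of its probe sets was called too (-1.22). Sugp2 was lost without Lower-SP replicate 1 (adjusted p = 0.053), Upper-SP replicate 1 (0.071) or Upper-SP replicate 2 (0.065), and both Sugp1 and Sugp2 with cyclic loess and with quantile normalization. Among G-patch genes that did not pass at their brightest probe set, another was called lower for Tfip11 (-1.01), Zgpat (-1.37), Cmtr1 (-1.20), Son (-0.99) and Cherp (-0.78) and higher for Gpatch4 (2.54). When Lower-SP replicates 1 and 2 were left out, the calls of Thoc2, Eif4b and Sugp2 were kept. So was that of Gpatch2, which had to differ. The remaining 8 called list genes were lost, among them Rbm5 (1.36, adjusted p = 0.051), Ythdc2 (0.63, 0.16) and Sugp1 (-0.36, 0.37).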

How the data were processed

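The deposited table holds log2 expression values that the authors made with GCRMA, one column per array and no column left out. GCOS 1.0 and GCRMA are named without parameters, per the submitters' processing notes, and no genome build is named in the sources at hand. Arrays have no sequencing depth, and their number, 3 per group, limits the precision. Per the labels, RNA went through repeated rounds of amplification, which can change the balance between probe sets of 1 gene. The 45101 probe sets include 64 controls, which were left out. The array annotation gives 1 gene symbol to 34945 of the remaining 45037, several to 932 and none to 9160, and all 49 helicase symbols matched a current RefSeq gene by Entrez ID with 0 changed.

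Probe sets above log2 4 on at least 3 of 6 arrays were fitted with limma 3.58.1 in R 4.3.3 (lmFit and eBayes with an intensity trend, 4 residual and 3.80 prior degrees of freedom, two-sided p values), without a replicate block. Adjustment was by the Benjamini-Hochberg method across every tested probe set. Where a group's mean lay under 4, arrays under 4 were set to 4 for the fold, which is a lower bound. On a simulated table of this comparison (19613 probe sets, 200 of them changed), the fit recovered 18.0% of changes of log2 1 and 69.0% of changes of log2 2. In the data 28.1% of the tested probe sets were called, a far larger share than was changed in the simulation. The recovered shares therefore need not hold for the data. Alternatives were other filters, scalings, variance models, kinds of probe set and representatives, a replicate block, and arrays left out. Samples of a group are named as biological replicates in the series' design text.

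Values on every array are given for called genes whose groups do not overlap (up to 10 in each direction), genes with a call and a tested probe set of the other sign, and Ddx5, Ddx17, Ddx6, Ddx21, Ddx41, Ddx39b, Dhx9 and Dhx15, and for called list members. The values of Ddx10, Ddx20, Ddx50, Ddx60, Dhx32, Ddx43 and Dhx34, the calls named at other probe sets of list genes, the motifs and the promoters shown were chosen after values were seen. The members, lists and tests were chosen with earlier results of these data known.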

Additional observations from a re-analysis of the deposited data

How the results depend on the processing

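With 1 array left out, the helicase genes called higher ranged from 0 to 1 (1 on all arrays), those called lower from 2 to 10 (9), the probe sets called higher from 1 to 7 (5) and lower from 5 to 17 (16), the median difference from -0.45 to -0.10 (-0.28), and all genes called from 695 to 3085 (2625). The counts of probe sets and of all genes were lowest without Upper-SP replicate 1, whereas leaving out Upper-SP replicate 2 brought the median nearest to 0. With Lower-SP replicates 1 and 2 left out, the counts were 2 and 2 genes, 3 and 4 probe sets and 1197 of all genes, and the median was 0.00067. With RefSeq mRNA probe sets alone, of which 8 belong to the family, they were 0 and 2 genes, 0 and 3 probe sets and 739 of all genes, with a median of 0.0367. With cyclic loess they were 3 and 4 genes and 8 and 9 probe sets, with a median of -0.0788 (all genes -0.09, against -0.24 as deposited). With no filter they were 0 and 4 genes, 3 and 9 probe sets and 1318 of all genes. With median centring 2 and 5 genes were called, with quantile normalization 2 were higher, with no trend 0, with the mean of a gene's probe sets 3, and with the dimmest probe set 2. Of the helicase genes called, 10.0% were higher as deposited, against 22.2% with quantile normalization, 28.6% with centring and 42.9% with cyclic loess. These shares rest on 1, 2, 2 and 3 genes called higher. Over all tested genes the share called higher rose as well, from 7.05% to 8.86%, 8.38% and 10.2% in the same order. The share called lower fell from 20.7% to 16.5%, 17.4% and 13.8%, so the shift is not particular to the helicases.

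With a replicate block 0 genes were higher and 6 lower, 4 of them among the 10 called without it. The others were Ddx46 (-0.72, adjusted p = 0.046) and Dhx57 (-1.19, adjusted p = 0.045). Deviations of arrays of the same number correlated at -0.051, -0.029 and -0.023 across probe sets, and those of different numbers at 0.001 to 0.036. Replicate 3 had the lowest neutrophil sum (9.95 and 7.92) and plasma cell sum (5.80 and 11.35) in both fractions. It also had the lowest B cell, T and NK cell, macrophage and dividing cell sums in both, but not the lowest stem cell or erythroid sum in both. Such values cannot decide whether arrays of the same number share a pool, which was not tested. Among the named genes, the sign turned with the dimmest probe set for Dhx15 (-0.23), Ddx49 (0.0807), Ddx24 (0.12), Ddx5 (0.80), Ddx17 (-0.99), Ddx18 (-1.05), Ddx54 (0.15), Dhx36 (-1.56), Dhx9 (-0.0913), Ighmbp2 (-0.066) and Thoc2 (-0.0187). It turned with the mean of probe sets for Ddx5 (0.21), Ddx17 (-0.49), Ddx18 (-0.46), Dhx30 (-0.0675), Dhx36 (-0.60) and Dhx9 (-0.0033), without _x_at and _s_at probe sets for Ddx17 (-0.99), Dhx30 (-0.75) and Dhx9 (-0.0913), and with RefSeq mRNA probe sets alone for Dhx30 (-0.75). With Lower-SP replicates 1 and 2 left out it turned for Ddx17 (-0.0627), Ddx54 (0.0867), Ddx21 (0.00067) and Ddx41 (0.60). With 1 array left out it turned for Ddx17 (range -0.19 to 0.15), Ddx18 (-0.0405 to 0.27), Ddx41 (-0.67 to 0.0595) and Dhx9 (-0.0138 to 0.18), none of them called at the brightest probe set. The cause of these changes was not tested, other than that fewer arrays or probe sets enter some of the fits. Signal near background limits Ddx4, Ddx60 and Ddx10. The Lower-SP values of Dhx58 (4.52 to 4.76) and Dhx29 (3.43 to 4.86) also lay near log2 4.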

Other observations

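On 4 of the 13 tested _x_at probe sets of the family (30.8%) the lowest of the 6 arrays was Upper-SP replicate 1, against 6 of its 67 other tested probe sets (8.96%). Over the whole array the shares were 23.6% of 1411 _x_at probe sets and 8.72% of 18202 others. These are descriptions, and no test was run.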
